A study of Mus musculus with 2 samples.

Results

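The miR-199 and miR-214 microRNAs were described by name in cultured vascular smooth muscle cells of diabetic and control mice. The 6 mature names chosen, out of 1909 names listed, were mmu-miR-199a-5p, mmu-miR-199a-3p, mmu-miR-199b-5p, mmu-miR-199b-3p, mmu-miR-214-5p and mmu-miR-214-3p, written below without the prefix for mouse. Because miR-199a-3p and miR-199b-3p had identical counts, the 6 names held 5 distinct forms. The db/db library came from thoracic aortic cells of type 2 diabetic mice of genetic background BKS.Cg-m+/+Leprdb/J, and the db/+ library from control mice labelled Lepr+/-. A db/db animal carries the defective leptin receptor allele on both chromosomes and a db/+ animal on 1 of them, so the allele was present in both groups. All mice were males aged 10 to 12 weeks, and the medium of both cultures was DMEM/F-12, to which antibiotics and 10% fetal bovine serum were added. Each group had 1 library, so no p-value was computed and every difference below is between these 2 libraries, not tested between genotypes. The number of animals behind each culture is not given in the sources used here.

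These microRNAs are typical of mesenchymal cells. A primary hairpin is processed into a short duplex, from which usually 1 arm is loaded into an Argonaute protein and the other is degraded, and bases 2 to 8 of the loaded arm (the seed) select target mRNAs. In mouse embryos the long noncoding RNA Dnm3os carries miR-199a and miR-214 and is needed for normal growth and skeletal development. Both microRNAs are also known from fibrotic and remodelling tissue. In cardiac muscle, miR-199a targets the hypoxia factor Hif1a, and miR-214 limits calcium overload through the exchanger Ncx1.

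The mature sequences show which reads can be assigned to a locus. They are RefSeq's on GRCm38.p6, which held 5 of the 6 names, and capitals mark the seed.
miR-199a-3p and miR-199b-3p: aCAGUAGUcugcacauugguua
miR-199a-5p: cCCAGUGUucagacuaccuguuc
miR-214-3p: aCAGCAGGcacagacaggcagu
miR-214-5p: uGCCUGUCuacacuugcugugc
The abundant arms of the 2 families begin alike. Within their first 8 bases, miR-214-3p differed from miR-199a-3p by U5C and U8G, with the miR-199a-3p base first and positions counted from 1 at the 5′ end. Their seeds are thus different, as are those of the 5p arms. Among the mature sequences of the table, miR-761 alone shared a seed with any of these forms, that of miR-214-3p. It had 0 counts in the db/db library and 0 in the db/+ library, which allows up to 0.123 CPM and 0.116 CPM (CPM, counts per 1000000 microRNA counts of the library, with 3 counts taken as the limit of a count of 0).

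The forms come from 4 hairpins. On chromosome 1, Mir199a-2 (chr1:162217814-162217923, plus strand) and Mir214 (chr1:162223368-162223477, plus strand) are separated by 5444 bases and both lie inside Dnm3os (chr1:162217623-162225550, plus strand). Each is contained in an exon of 2 Dnm3os transcripts of GENCODE M21, and other transcripts of that gene have exon ends within the hairpins. On the opposite strand both fall in introns of Dnm3, a dynamin gene. The other hairpins have the same arrangement at its paralogs. Mir199b (chr2:32318460-32318569, plus strand) lies antisense to an intron of Dnm1, and Mir199a-1 (chr9:21496495-21496564, minus strand) antisense to an intron of Dnm2. Within 10 kb of a hairpin, GENCODE listed Gm23363 as the sole further microRNA gene, 116 bases from Mir199b, and it was not analysed here.

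**Figure D1:**
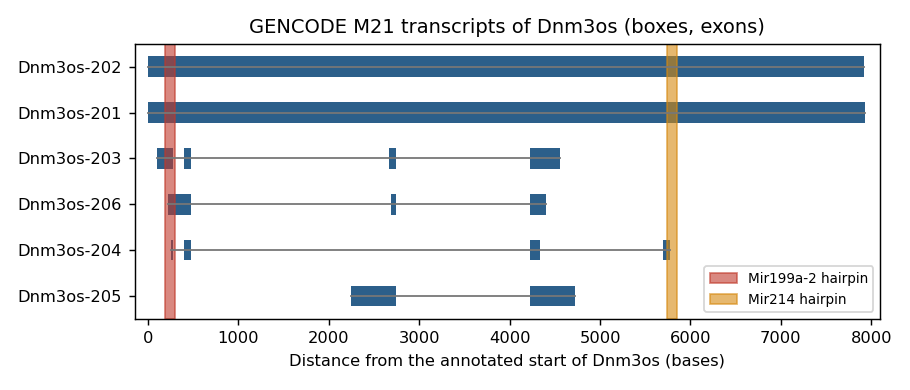
Map of the 6 GENCODE M21 transcripts of Dnm3os by distance from the annotated gene start in bases, with exons as boxes, introns as lines and the hairpins Mir199a-2 and Mir214 as shaded bands. The Mir199a-2 hairpin starts 191 bases and the Mir214 hairpin 5745 bases after the gene start, and exons of 2 transcripts cover both whole.

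The miR-199 hairpins are printed because their mature stretches decide what can be separated. Capitals mark the mature forms, and in Mir199b also the stretch aligned with miR-199a-5p.
Mir199a-2: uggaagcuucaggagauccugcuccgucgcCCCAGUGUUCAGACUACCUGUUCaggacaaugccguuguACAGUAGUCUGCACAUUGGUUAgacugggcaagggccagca
Mir199a-1: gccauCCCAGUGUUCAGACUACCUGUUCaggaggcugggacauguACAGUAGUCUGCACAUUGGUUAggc
Mir199b: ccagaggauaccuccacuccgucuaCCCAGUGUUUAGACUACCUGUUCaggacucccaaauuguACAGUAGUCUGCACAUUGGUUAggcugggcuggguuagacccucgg
The 3p stretch is the same in all 3 hairpins, so its reads cannot be told apart by locus. On the 5p side, the stretch of Mir199b differed from miR-199a-5p by C10U, with the miR-199a-5p base first and positions counted from its 5′ end. That difference lies outside the seed. Reads of miR-199a-5p match the hairpins on chromosomes 1 and 9 equally and cannot be assigned to either. Those of miR-214 match its hairpin on chromosome 1.

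The db/db library held 24295112 counts over 833 detected names, and the db/+ library 25915732 over 881. At least 50 counts in a library were reached by 356 names, among them 5 of the 6 names described here (4 of the 5 distinct forms), and miR-214-5p did not reach them. Smooth muscle markers were present, as the 4 arms of miR-143 and miR-145a summed to 1567 CPM in db/db and 1656 CPM in db/+. The 2 endothelial markers summed to 2.92 CPM in db/db and 0.270 CPM in db/+, with 0 of 2 at 0 counts in either library. The 7 blood markers summed to 6.75 and 6.48 CPM, with 3 of 7 at 0 in db/db and 4 of 7 in db/+. For the 7 epithelial markers the sums were 1.19 and 0.463 CPM, with 2 of 7 at 0 in each. The endothelial and epithelial sums were thus higher in the db/db library while the miR-199 and miR-214 forms were lower there, and their part in these results was not tested. These sums rest on few counts. The endothelial one came mainly from miR-126a-5p, with 58 counts in db/db and 2 in db/+, beside 13 and 5 for miR-126a-3p. The epithelial sums were 29 and 12 counts, with miR-141-3p (0 and 2) and miR-205-5p (0 and 1) lower in db/db.

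The shared 3p form of miR-199 was among the most abundant microRNAs of these cells and was lower in the db/db library. It had 180274 counts in db/db and 264469 in db/+, or 7420 CPM (exact Poisson 95% interval 7386 to 7455) against 10205 CPM (10166 to 10244). It ranked 12 among all names in db/db and 11 in db/+. The ratio of db/db over db/+ was 0.727, with an exact conditional 95% interval of 0.723 to 0.731. Intervals here cover counting error only and treat each read as an independent count. Where reads are PCR copies of the same molecule, the intervals are too narrow even for that error. They say nothing of variation between cultures or mice.

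The arm with most counts of the Mir214 hairpin, miR-214-3p, was likewise lower in the db/db library. Counts of the miR-199 3p form exceeded its own 74.9-fold in db/db and 82.3-fold in db/+. It had 2408 counts in db/db and 3214 in db/+, or 99.1 CPM (95.2 to 103) against 124 CPM (120 to 128). Its rank was 92 in db/db and 81 in db/+. The ratio was 0.799 (0.758 to 0.843). Per 100 counts of the miR-199 3p form there were 1.34 counts of miR-214-3p in db/db and 1.22 in db/+. Levels of different microRNAs in small RNA libraries also reflect how well each is ligated, so the contrast between the arms of the same library is a count, not a molar ratio.

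The 5p arm miR-199a-5p, which shares no seed with its 3p partner, had 470 counts in db/db and 584 in db/+. Its levels were 19.3 CPM (17.6 to 21.2) in db/db and 22.5 CPM (20.7 to 24.4) in db/+. The ratio was 0.858 (0.759 to 0.971), the mildest difference among the 5 forms. That interval lay below 1 with scaling to the total, but it included 1 under each of 4 other scalings, with ratios of 0.894 to 0.918.

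The form named for the chromosome 2 hairpin, miR-199b-5p, was far lower in the db/db library. It had 6 counts in db/db and 87 in db/+. Its levels were 0.247 CPM (0.0906 to 0.538) in db/db and 3.36 CPM (2.69 to 4.14) in db/+, a ratio of 0.0736 (0.0263 to 0.167). The upper bound was 0.178 over 4 other scalings. Its log2 ratio was -3.66 with 0.5 counts added, and 3 of the 356 names with at least 50 counts had a lower log2 ratio. It reached 50 counts in the db/+ library alone, so this place near the low end is tied to the floor. The value in db/db stands close to the limit of a count of 0.

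The last form, miR-214-5p, had 13 counts in db/db and 24 in db/+, or 0.535 CPM (0.285 to 0.915) against 0.926 CPM (0.593 to 1.38). Its ratio of 0.578 had an interval of 0.270 to 1.18, so a difference was not detectable at this depth.

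**Figure D2:**
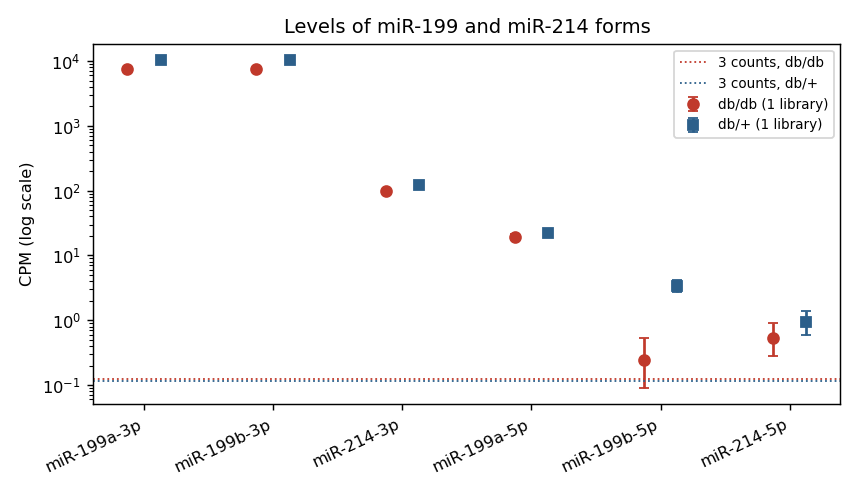
Levels of the 6 names in CPM on a log axis, with the db/db library as circles and the db/+ library as squares, exact Poisson 95% intervals as bars and the limit of 3 counts as dotted lines. The 3p form shared by miR-199a and miR-199b stands at 7420 CPM in db/db and 10205 CPM in db/+, and miR-199b-5p at 0.247 CPM in db/db and 3.36 CPM in db/+.

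All 5 names with at least 50 counts had ratios below 1, beside 57% of the 356 names. Intervals lay below 1 for the same 5 names, beside 44.1% of the 356, and above 1 for 0 of 5, beside 31.7%. Taking the identical 3p counts once leaves 4 of 4 distinct forms, of which miR-199a-5p had an interval including 1 under the 4 other scalings. The 356 names were not reduced in this way. Other names with equal values, such as miR-466b-3p and miR-466c-3p, count more than once in the shares and the median over them. A difference of at least 2-fold downwards was reached by 1 of the 5 names, miR-199b-5p, beside 13.5% of all. With 6 counts in db/db and 87 in db/+, it passed the floor of 50 counts through the db/+ library alone, so its place among these counts is tied to the floor. Upwards the count was 0 of 5, beside 4.49%. The median log2 ratio was -0.39 over the 4 distinct forms, miR-199b-5p included, and -0.14 over the 356 names. These counts and medians describe the names that passed the floor. The share of counts on the 5 forms, each read taken once, was 0.754% in db/db and 1.04% in db/+. Their sum had a ratio of 0.728 (0.724 to 0.732), which was set by the miR-199 3p form, with 98.4% of these counts in db/db and 98.5% in db/+.

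**Figure D3:**
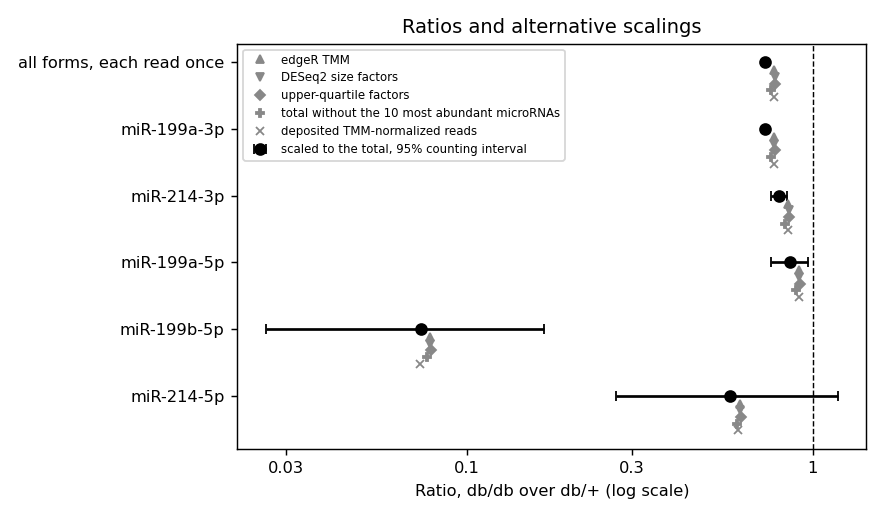
Ratios of db/db over db/+ on a log axis for the sum and the 5 distinct forms, scaled to the library total (black, 95% counting interval) and under 5 other scalings (grey symbols). The ratio of miR-199b-5p is 0.0736, those of miR-199a-3p, miR-214-3p and miR-199a-5p lie between 0.727 and 0.858, and the interval of miR-214-5p crosses 1.

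**Figure D4:**
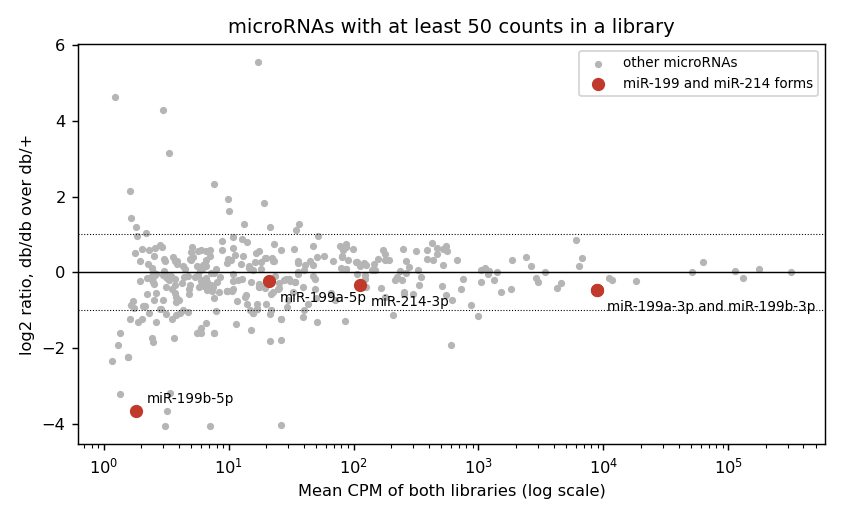
Log2 ratio of db/db over db/+ against mean CPM (log axis) for the 356 microRNAs that reached 50 counts in a library, with the miR-199 and miR-214 forms in red and dotted lines at 2-fold. The form miR-199b-5p lies at -3.66, while miR-199a-5p, miR-214-3p and the shared 3p form lie between -0.46 and -0.22.

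Comparing the forms with each other removes the scaling, since each ratio then divides the other. Of the 10 pairs of distinct forms, 6 had a ratio of ratios whose conditional 95% interval excluded 1, with no adjustment over pairs. All 4 pairs with miR-199b-5p were among them and reuse its 6 counts in db/db, so they are not independent. The share among pairs of other names was not computed. For single ratios an interval excluding 1 was common, lying below 1 for 44.1% of the 356 names and above 1 for 31.7%. The ratio of miR-199a-5p was 11.7 times that of miR-199b-5p (5.08 to 32.9). The main 3p forms also differed, as miR-199a-3p relative to miR-214-3p gave 0.910 (0.862 to 0.960). Relative to miR-214-3p, miR-199a-5p gave 1.07 (0.939 to 1.23), an interval that included 1.

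Among miR-199 5p counts, the share listed as miR-199b-5p was 1.26% in db/db (6 of 476, exact Clopper-Pearson interval 0.464 to 2.72) and 13.0% in db/+ (87 of 671, 10.5 to 15.7). Taken alone, miR-199a-5p was higher relative to the shared 3p form in db/db, with a ratio of ratios of 1.18 (1.04 to 1.34). With both 5p forms together it was 1.04 (0.923 to 1.17). Counted together, the 5p forms had 19.6 CPM in db/db and 25.9 CPM in db/+, a ratio of 0.757 (0.671 to 0.852), and this interval held the 0.727 of the 3p form. How many mismatches read assignment allowed is not given in the sources used here, and with 1 base between the 5p stretches, exchange of reads between the names was not tested.

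Both families kept nearly all counts on the 3p arm in both libraries. The 5p share of miR-199a, with all shared 3p counts set against miR-199a-5p, was 0.260% (0.237 to 0.285) in db/db and 0.220% (0.203 to 0.239) in db/+. With both 5p forms it was 0.263% (0.240 to 0.288) and 0.253% (0.234 to 0.273), and these intervals overlap. For miR-214 the 5p share was 0.537% (0.286 to 0.916) in db/db and 0.741% (0.475 to 1.10) in db/+, again overlapping. Such a skew was not rare, as 73 of 204 hairpins whose arms summed to 50 counts or more in each library had a minor arm under 1% in both. The miR-199a, miR-199b and miR-214 names are themselves among the 73. Near the floor of 50 counts, a share under 1% requires 0 counts on the minor arm, so low depth adds to that number. The 3p arms of both families begin with A. Of the major arms of 162 hairpins with a RefSeq sequence, 74.7% began with A or U, and 29.0% with A. First bases of minor arms were not counted. Argonaute proteins are known to hold a 5′ A or U more readily, and a part of this in the skew was not tested. Of the rare arms, miR-199a-5p begins with C and miR-214-5p with U.

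**Figure D5:**
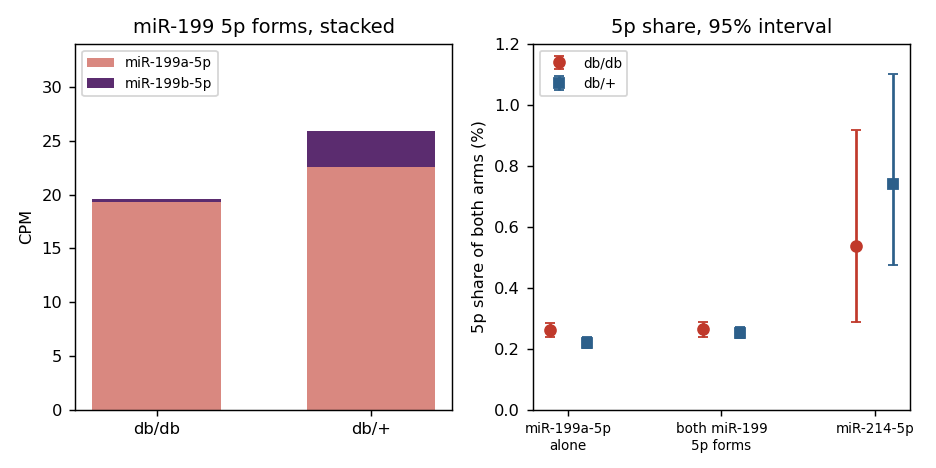
Left, CPM of miR-199a-5p and miR-199b-5p stacked for the db/db and db/+ libraries. Right, 5p share of both arms in percent with exact 95% intervals, for miR-199a-5p alone, both miR-199 5p forms and miR-214-5p, with db/db as circles and db/+ as squares; with both 5p forms the miR-199 shares are 0.263% in db/db and 0.253% in db/+.

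The microRNA most like miR-199a-3p in level was miR-21a-5p, at 7399 CPM in db/db and 10479 CPM in db/+. Likeness was measured as the distance between log2 CPM values over the 2 libraries, which was 0.038 for miR-21a-5p. The next, miR-320-3p, stood at 0.53, followed by let-7d-5p, let-7g-5p and miR-423-5p at 0.63 to 0.80. Around miR-214-3p the nearest were miR-495-3p, miR-434-3p, miR-664-5p, miR-93-5p and miR-30a-3p, at distances of 0.22 to 0.34. Of these, miR-434-3p had the ratio closest to that of miR-214-3p, with 108 CPM in db/db and 142 CPM in db/+ and a ratio of 0.762 (0.725 to 0.802).

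Other microRNAs known from mesenchymal cells did not lie to 1 side. Of 16 listed, 15 had at least 50 counts, 7 with ratios above 1 and 8 below (57% below over all 356), and their median log2 ratio was -0.03. At least 2-fold higher was 1 of the 15, beside 4.49% over all, and 2 were at least 2-fold lower, beside 13.5%. The higher was miR-10b-5p, a product of the Hox clusters. The lower were miR-196a-5p, also a Hox-cluster microRNA, and miR-140-5p, a cartilage microRNA, which had 2.76 CPM in db/db and 8.49 CPM in db/+. The most abundant were miR-140-3p, miR-21a-5p, miR-10a-5p and miR-125b-5p, with ratios of 1.21, 0.706, 1.79 and 1.01. Among 16 microRNAs known as regulators of fibrosis and matrix, 14 had at least 50 counts, 2 with ratios above 1 and 12 below, beside 57% below over all. Their median log2 ratio was -0.55, beside -0.14 over all. Of the 14, 3 were at least 2-fold lower, beside 13.5% over all, and these were miR-132-3p, miR-18a-5p and miR-19b-3p. The most abundant of this list were miR-29a-3p, which restrains collagen mRNAs, miR-21a-5p, miR-30a-5p and miR-26a-5p. Their ratios were 0.860, 0.706, 1.01 and 0.661, with 441 CPM in db/db and 667 CPM in db/+ for the last. The lists share miR-21a-5p, and the second holds related forms such as miR-29a-3p, miR-29b-3p and miR-29c-3p. Both lists were chosen with earlier results of these data known, so their counts and medians describe the listed names only.

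The promoter of Dnm3os, the host of the chromosome 1 hairpins, is shown as background on that locus. Its part in the lower counts of the db/db library was not tested. The window covers 250 bases before to 50 after the RefSeq start (GRCm38.p6, chr1:162217373-162217672, plus strand), and capitals mark a CArG box.
Dnm3os promoter: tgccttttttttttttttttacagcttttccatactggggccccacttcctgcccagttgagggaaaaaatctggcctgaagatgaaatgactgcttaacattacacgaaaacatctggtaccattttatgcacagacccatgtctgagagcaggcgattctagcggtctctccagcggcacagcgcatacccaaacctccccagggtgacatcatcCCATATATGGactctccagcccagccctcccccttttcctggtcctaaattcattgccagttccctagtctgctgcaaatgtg
The CArG box is the element bound by serum response factor, which with myocardin drives contractile genes of smooth muscle. The window held 1 match, CCATATATGG, which ends 24 bases before the start. A CArG box was found in 535 of 32851 promoter windows of this length (1.63%). The motif CANNTG, the E-box of basic helix-loop-helix factors such as Twist1, a known activator of Dnm3os in mouse embryos, had 3 matches and was found in 72.3% of windows. Both motifs read the same on both strands and their matches do not overlap here. A match describes letters and not binding, and Dnm3os transcripts were not analysed here.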

How the data were processed

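For each of 2 libraries the authors deposited a raw count and a TMM-normalized read number per mature microRNA, per the file headers. Novoalign, edgeR and mm10 are named without version or role in the submitters' processing notes. Trimming and mismatch limits are not given in the sources used here. Since the deposited normalized reads were rounded to whole numbers, that column was treated as a score and used only as an alternative scaling.

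Counts were scaled to each library's total. Ratios of db/db over db/+ carry exact conditional (Clopper-Pearson) 95% intervals. With 1 library per group no count model could be fitted and no p-values were made. The floor was 50 counts in at least 1 library, the size rule took ratios of 2 or more and of 0.5 or less, and log2 ratios had 0.5 counts added. Named microRNAs were the chosen forms, those sharing a seed or lying within 10 kb, the 5 nearest in level, and in each list the 4 most abundant and those past the size rule. The members and lists were chosen with earlier results of these data known. Other scalings used edgeR 4.0.16 and DESeq2 1.42.0 in R 4.3.3, with Python 3.11.15 and scipy 1.17.1 for the rest. In counts simulated for db/db over db/+ with Poisson error alone, 95.5% of intervals for 358 microRNAs held the simulated ratio. The intervals are built for that error, so this checks the calculation and not the spread of real libraries. GENCODE M21 and RefSeq tables are on GRCm38, also called mm10, and 1623 of 1909 names matched a RefSeq sequence.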

Additional observations from a re-analysis of the deposited data

How the results depend on the processing

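The 4 scalings by a library factor moved every log2 ratio by 0.06 to 0.10, more than the counting error of the miR-199 3p form. Neither they nor the deposited TMM reads, whose rounding put miR-199b-5p at 0.0732, reversed a ratio of the 5 forms or their sum. The ratio of miR-199a-3p was 0.773 with edgeR TMM, 0.774 with DESeq2 size factors, 0.778 with upper-quartile factors, 0.757 without the 10 most abundant microRNAs and 0.773 with the deposited TMM reads. For miR-214-3p the values were 0.849 with edgeR TMM and with deposited TMM, 0.851 with DESeq2 and 0.855 with upper quartile. The sum of the forms had 0.774 with both TMM scalings, 0.775 with DESeq2, 0.779 with upper quartile and 0.758 without the 10 most abundant. Adding miR-199b-5p put the db/+ 5p share at 0.253%. Names at least 2-fold higher numbered 46 at a floor of 10 counts, 171 with no floor and 48 at 1.5-fold, and lower ones 91, 259 and 86, as fewer or more names were admitted by construction. The other 34 alternative values for these results, and 10 for log2 ratios with 0.1 or 5 counts added, stayed inside the counting interval or within 1.5-fold. No paired analysis was possible because there is a single library of each genotype, and without either of them no comparison remains. Depth limits miR-199b-5p in db/db and miR-214-5p in both libraries.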

Other observations

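Pairs of microRNAs whose mature stretches have the same length and differ at 1 base were surveyed after the values of miR-199b-5p had been seen. There were 13 such pairs with at least 50 counts for each name in a library and counts in both. For each, the counts of the name with fewer counts over both libraries were given per 100 counts of the other. For miR-199b-5p they were 1.28 per 100 of miR-199a-5p in db/db and 14.9 in db/+, a ratio of 0.0857. Of the 12 other pairs, 10 had ratios between 0.694 and 1.13. The remaining pairs, both from the Hox clusters, departed further from 1 than the miR-199 pair, and whether such a ratio stands above or below 1 depends on which name is divided by the other. For miR-10b-5p there were 0.432 counts per 100 of miR-10a-5p in db/db and 0.0160 in db/+, a ratio of 26.9. For miR-196b-5p there were 381 per 100 of miR-196a-5p in db/db and 12.8 in db/+, a ratio of 29.7, so miR-196b-5p was the commoner of that pair in db/db. Pairs of the let-7 family share members and are not independent.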
